A study of Mus musculus with 10 samples.

Results

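The 10 genes described here are Atf4, which encodes activating transcription factor 4, and 9 genes that belong to the stress response it runs: Atf3, Atf5, Ddit3, Ddit4, Trib3, Chac1, Nupr1, Sesn2 and Stc2. They were taken by name from a table of nascent intronic RNA of 24901 genes in mouse embryonic stem cells, and each name stood on 1 line of it. They were selected on their measured differences between the EloA mutants and EloA_WT, with earlier results of these data known, so those differences are given as a description. The choice did not rest on the comparison between the mutants or on that of Eed_null with CJ7_WT. The comparison between the mutants uses the same mutant libraries, so it may not be fully independent of the choice. Comparisons of the EloA libraries with CJ7_WT use the mutant and EloA_WT values that chose the genes, so they too are a description.

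ATF4 is the effector of the integrated stress response. Kinases that sense amino acid shortage, haem shortage, unfolded protein in the endoplasmic reticulum or double-stranded RNA phosphorylate the translation factor eIF2α, which lowers protein synthesis in general while ATF4 mRNA is translated more. ATF4 then binds, usually as a dimer with a C/EBP factor, to sites in genes for amino acid supply, redox balance and cell death. Its own amount is largely set by translation and protein turnover, so a measurement of nascent RNA shows the making of Atf4 RNA and not the amount of the protein.

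Nascent RNA was measured by Bru-seq, in which cells take up bromouridine for a short time (2 mM for 10 min) and the labelled RNA is pulled down with an antibody and sequenced. The design comprised 10 samples in 5 groups of 2: EloA_K754M and EloA_K754R, edited cells in which 1 lysine of Elongin A is changed to methionine or arginine, EloA_WT cells, which carry no such edit, Eed_null cells, which lack a core subunit of the Polycomb repressive complex PRC2, and CJ7_WT cells. The medium of all groups held LIF, 1 µM PD0325901, a MEK inhibitor, and 3 µM CHIR99021, a GSK3 inhibitor, and the labels do not say how many clones of each mutant were used. Each of the 6 EloA samples has its own column, whereas Eed_null and CJ7_WT each have 1 column for both of their samples. The labels name the line CJ7 for both mutants and for CJ7_WT, and CCE28 for EloA_WT and Eed_null, while the growth protocol speaks of CJ7 cells, so the line and the EloA genotype cannot be told apart in a comparison of the mutants with EloA_WT. The labels also give the Eed null samples the genotype EloA null, and the titles and column names, which say Eed, were followed.

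The values are intronic RPKM, reads in the introns of a gene per kilobase of intron, scaled by the depth of the library. Reads recovered from the steps of these values came to 14343102 and 15087304 in EloA_K754M, 15729212 and 21390772 in EloA_K754R, 18933822 and 16044808 in EloA_WT, 39030296 in pooled Eed_null and 46253896 in pooled CJ7_WT. The introns of Tceb3, the gene of Elongin A, had 1.12 to 2.03 RPKM in the 6 EloA libraries, which cannot check an edit of 1 residue, and those of Eed had 7.97 RPKM in Eed_null and 10.02 RPKM in CJ7_WT, so the labelled loss of Eed was not visible as a loss of its intronic RNA. The summed level of 9 embryonic stem cell markers lay between 151 and 192 RPKM in the 8 columns, with none of them at 0. The summed level of 14 markers of embryonic fibroblasts, the feeder cells named in the protocol, was 6.38 and 4.83 RPKM in EloA_K754M, 7.04 and 4.85 in EloA_K754R, 4.50 and 3.21 in EloA_WT, 9.43 in Eed_null and 7.63 in CJ7_WT. Of these fibroblast markers Lum was at 0 in the first EloA_WT library and Twist1 and S100a4 were at 0 in the second. Among those that could be tested 11 of 11 had positive differences in both mutants against EloA_WT, with 0 passing the limma test. Over all genes 42.8% were positive in EloA_K754M and 35.5% in EloA_K754R. The part of feeder cells in the differences described here was not tested.

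Promoter sequences show which of the genes carry a letter pattern of the kind that ATF4 dimers bind. The RefSeq windows of GRCm38.p6, each covering 250 bases before and 50 bases after a gene's start, were searched on both strands for TGATGNAA, the core of the amino acid response element. It stood in 4 of the 10 genes, Atf3, Trib3, Chac1 and Nupr1. Counted by window this was 4 of 11, as Atf5 has an additional window, beside 3.97% of all 32851 mouse windows. The related letters TGACGNAA, chosen after the sequences had been seen, stood in Atf3 and Chac1, and in 1.59% of all windows. The sequences of these 4 genes are printed on the strand of the gene, 5′ to 3′, with every match to either pattern in capitals, and Stc2 is added as the gene with the widest difference between EloA_K754M and EloA_WT and no match.
Chac1, chr2:119350992-119351291, plus strand: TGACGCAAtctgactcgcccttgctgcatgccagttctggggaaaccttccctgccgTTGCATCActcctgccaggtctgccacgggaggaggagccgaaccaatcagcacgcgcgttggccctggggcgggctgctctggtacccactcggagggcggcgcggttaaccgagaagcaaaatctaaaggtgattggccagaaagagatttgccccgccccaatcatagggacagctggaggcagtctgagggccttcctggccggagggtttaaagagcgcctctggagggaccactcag
Trib3, chr2:152344011-152344310, minus strand: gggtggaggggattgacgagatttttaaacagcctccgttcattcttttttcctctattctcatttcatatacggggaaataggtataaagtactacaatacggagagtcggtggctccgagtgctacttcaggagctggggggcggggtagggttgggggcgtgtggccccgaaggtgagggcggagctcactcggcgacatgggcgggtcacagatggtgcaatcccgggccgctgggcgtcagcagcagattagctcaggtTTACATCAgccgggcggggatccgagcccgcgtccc
Nupr1, chr7:126625421-126625720, minus strand: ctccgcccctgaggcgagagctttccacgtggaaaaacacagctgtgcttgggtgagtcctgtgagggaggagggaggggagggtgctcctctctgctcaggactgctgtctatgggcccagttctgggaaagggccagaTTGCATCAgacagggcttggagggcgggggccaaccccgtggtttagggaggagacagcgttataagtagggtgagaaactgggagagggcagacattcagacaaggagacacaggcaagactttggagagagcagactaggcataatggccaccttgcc
Atf3, chr1:191183284-191183583, minus strand: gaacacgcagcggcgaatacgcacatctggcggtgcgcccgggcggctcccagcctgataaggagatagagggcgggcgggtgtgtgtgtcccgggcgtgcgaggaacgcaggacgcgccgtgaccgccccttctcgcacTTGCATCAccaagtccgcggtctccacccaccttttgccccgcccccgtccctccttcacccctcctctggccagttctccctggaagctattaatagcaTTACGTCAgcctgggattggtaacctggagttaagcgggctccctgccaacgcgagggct
Stc2, chr11:31370012-31370311, minus strand: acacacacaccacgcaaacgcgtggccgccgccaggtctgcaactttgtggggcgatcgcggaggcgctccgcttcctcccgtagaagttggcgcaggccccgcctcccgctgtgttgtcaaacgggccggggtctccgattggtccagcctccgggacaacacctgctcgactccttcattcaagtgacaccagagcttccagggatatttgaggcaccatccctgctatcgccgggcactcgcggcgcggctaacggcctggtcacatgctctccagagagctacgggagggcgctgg
In Chac1 the 2 matches began 250 and 193 bases before the start, in Nupr1 the match began 110 bases before it, in Trib3 it began 14 bases after it, and in Atf3 the 2 matches began 110 and 10 bases before it. Trib3, Chac1 and Nupr1, 3 of the 4 genes with a match, were also among the 4 genes with the widest differences from EloA_WT in both mutants, and the fourth of those, Stc2, had no match in its window. Since the differences from EloA_WT chose the genes, nothing is read from this overlap. A match is a run of letters and no evidence of binding, and the windows of Atf4, Atf5, Ddit3, Ddit4, Sesn2 and Stc2 only lack these letters within 300 bases.

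**Figure D1:**
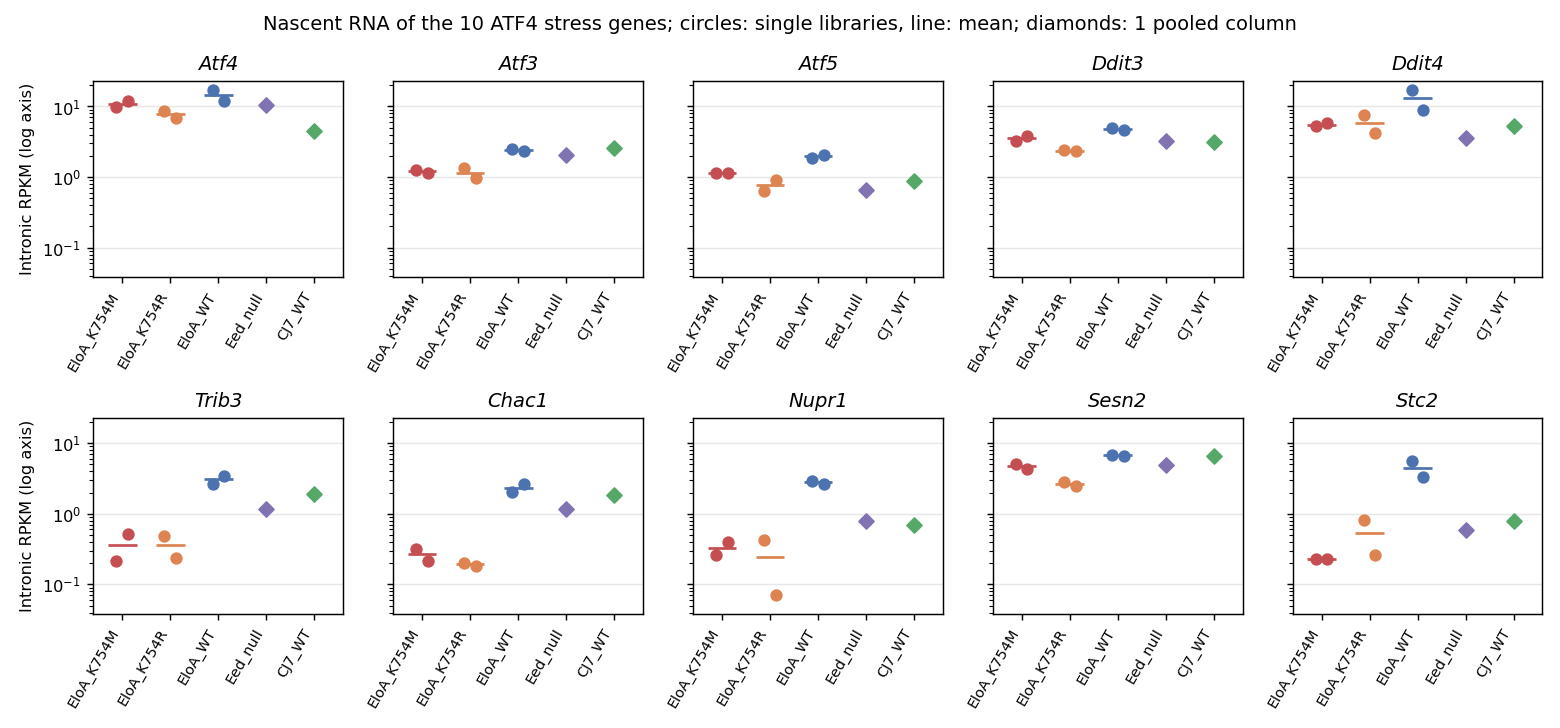
Intronic RPKM (log axis) of the 10 genes in each group. Circles are single libraries with a line at their mean, and diamonds are the single pooled columns; for every gene both libraries of each mutant lie below both EloA_WT libraries, and the gap is widest for Trib3, Chac1, Nupr1 and Stc2.

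Among the transcription factors of the group, Atf4 had the highest level per length of intron in every column. Atf4 stood at 9.73 and 12.05 RPKM in EloA_K754M and at 8.55 and 6.92 RPKM in EloA_K754R, against 17.1 and 12.1 RPKM in EloA_WT. In bulk samples such as these, fewer cells making a transcript and less of it per cell cannot be told apart. Both mutants lay below EloA_WT without overlap, but the higher EloA_K754M library and the lower EloA_WT library almost touched. The difference from EloA_WT on the scale of log2(RPKM + 0.1), used for all differences below, was −0.41 (SE 0.22) in EloA_K754M and −0.89 (SE 0.22) in EloA_K754R. Without the first EloA_WT library the differences were −0.16 and −0.64, and without the second −0.66 and −1.15. These values rest on about 635 bases of intron, judged from the steps of the values, and on 88 to 210 reads a library. In GENCODE M21 the nearest length is the 633 bases of intron of 1 annotated transcript, and 0 bases of the gene are intron in all of its transcripts, so the reads may include exonic ones of other transcripts, which was not tested.

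Ddit3 encodes CHOP, a factor induced by ATF4 that drives expression of cell death genes under lasting stress. Ddit3 stood at 3.26 and 3.83 RPKM in EloA_K754M and at 2.40 and 2.32 RPKM in EloA_K754R, against 5.00 and 4.63 RPKM in EloA_WT. The 3 groups did not overlap, with EloA_K754R lowest. Differences from EloA_WT were −0.43 (SE 0.13) in EloA_K754M and −0.999 (SE 0.13) in EloA_K754R. The gene overlaps Mars, the methionyl-tRNA synthetase gene, on the opposite strand in GENCODE M21, and as strand handling is not given in the sources used here, reads of one may have been counted for the other. Mars itself stood at 3.12 and 3.47 RPKM in EloA_K754M and at 2.90 and 2.99 RPKM in EloA_K754R, against 4.86 and 6.16 RPKM in EloA_WT.

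Atf5 is a close relative of Atf4 that is also translated more when eIF2α is phosphorylated. Atf5 stood at 1.13 RPKM in both EloA_K754M libraries and at 0.639 and 0.916 RPKM in EloA_K754R, against 1.89 and 2.04 RPKM in EloA_WT. Again no groups overlapped and EloA_K754R was lowest. Differences from EloA_WT were −0.75 (SE 0.18) in EloA_K754M and −1.25 (SE 0.18) in EloA_K754R. Atf5 overlaps Nup62, a nuclear pore gene, and Il4i1 on the opposite strand, and Nup62 was far higher, at 12.7 and 12.9 RPKM in EloA_K754M and 10.7 and 14.4 RPKM in EloA_K754R, against 15.5 and 18.4 RPKM in EloA_WT, so the value of Atf5 is uncertain if strand was not used.

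Atf3 is a stress-induced factor of the same bZIP family that ATF4 activates and that can repress its targets. Atf3 stood at 1.28 and 1.14 RPKM in EloA_K754M and at 1.33 and 0.978 RPKM in EloA_K754R, against 2.48 and 2.32 RPKM in EloA_WT. The mutants overlapped each other and lay apart from EloA_WT. Differences were −0.93 (SE 0.17) in EloA_K754M and −1.01 (SE 0.17) in EloA_K754R.

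The 4 genes that differed most from EloA_WT were effectors, 3 of which act inside the cell on signalling, glutathione and chromatin. Chac1, an enzyme that breaks down glutathione, stood at 0.313 and 0.218 RPKM in EloA_K754M and at 0.203 and 0.182 RPKM in EloA_K754R, against 2.01 and 2.67 RPKM in EloA_WT. The difference was −2.74 (SE 0.22) in EloA_K754M, 6.68-fold lower, and −3.05 (SE 0.22) in EloA_K754R, 8.28-fold lower. These are folds of RPKM + 0.1, and the added 0.1 makes them smaller than folds of RPKM. The low RPKM of the mutants rest on 5 to 7 reads in each of the 4 mutant libraries, against 59 and 66 reads in EloA_WT.

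Trib3 encodes a pseudokinase induced by ATF4 and CHOP that binds the kinase AKT and dampens ATF4 activity. Trib3 stood at 0.212 and 0.516 RPKM in EloA_K754M and at 0.481 and 0.236 RPKM in EloA_K754R, against 2.66 and 3.47 RPKM in EloA_WT. Replicates of each mutant differed more than 2-fold, and yet the highest mutant library stayed well below the lower EloA_WT library. The difference was −2.84 (SE 0.41) in EloA_K754M, 7.16-fold lower, and −2.83 (SE 0.41) in EloA_K754R, 7.10-fold lower. Both are folds of RPKM + 0.1, smaller than folds of RPKM.

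Nupr1, a small stress-induced chromatin protein, stood at 0.259 and 0.404 RPKM in EloA_K754M and at 0.424 and 0.0702 RPKM in EloA_K754R, against 2.89 and 2.67 RPKM in EloA_WT. The second EloA_K754R library was the lowest of all, on 2 reads, and the other 3 mutant libraries had 5 to 9 reads, against 73 and 57 reads in EloA_WT. The difference was −2.76 (SE 0.52) in EloA_K754M and −3.27 (SE 0.52) in EloA_K754R, or −4.08 without the first and −2.46 without the second EloA_K754R library.

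Stc2 encodes stanniocalcin 2, a secreted glycoprotein induced by endoplasmic reticulum stress. Stc2 stood at 0.232 and 0.227 RPKM in EloA_K754M and at 0.820 and 0.261 RPKM in EloA_K754R, against 5.68 and 3.33 RPKM in EloA_WT. The 2 EloA_K754M libraries nearly coincided, and the first EloA_K754R library stood well above the other mutant libraries. The difference of −3.76 (SE 0.47) in EloA_K754M was the widest of the 10 genes in that comparison. It was 13.5-fold lower as a fold of RPKM + 0.1, which is smaller than the fold of RPKM. The mean RPKM was 0.230 in EloA_K754M, against 4.50 in EloA_WT. In EloA_K754R the difference was −2.95 (SE 0.47), or −3.63 without the first and −2.27 without the second EloA_K754R library. Stc2 lies on chromosome 11, where the 1314 genes tested had a median difference of −0.46 in EloA_K754M and −0.56 in EloA_K754R, with 84.9% and 90.9% of them negative. The part of this chromosome-wide difference in Stc2 was not tested, and Stc2 lay 3.30 and 2.38 below the median of its chromosome in EloA_K754M and EloA_K754R.

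Ddit4 and Sesn2 both hold back the growth kinase mTORC1 under stress. Ddit4, also called REDD1, stood at 5.26 and 5.77 RPKM in EloA_K754M and at 7.47 and 4.24 RPKM in EloA_K754R, against 17.1 and 8.92 RPKM in EloA_WT. The EloA_WT libraries differed nearly 2-fold from each other, and all 4 mutant libraries lay below the lower of them. The difference was −1.15 (SE 0.38) in EloA_K754M and −1.12 (SE 0.38) in EloA_K754R, on 413 bases of intron and 32 to 136 reads a library. Without the first EloA_WT library the differences were −0.68 and −0.65, and without the second −1.61 and −1.58. In EloA_K754R the difference was −1.52 without its first and −0.72 without its second library.

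Sesn2, a leucine sensor upstream of mTORC1, stood at 5.13 and 4.28 RPKM in EloA_K754M and at 2.84 and 2.49 RPKM in EloA_K754R, against 6.87 and 6.55 RPKM in EloA_WT. It was the best measured of the group, with 661 to 1907 reads a library over 14378 bases of intron, and its 3 groups did not overlap. The difference was −0.51 (SE 0.14) in EloA_K754M and −1.31 (SE 0.14) in EloA_K754R. Genes of its chromosome, 4, had a median difference of −0.04 in EloA_K754M and −0.30 in EloA_K754R.

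Counted over the 10 genes, both libraries lay below both EloA_WT libraries for 10 in EloA_K754M, where 27.2% of all 15161 genes tested did so, and for 10 in EloA_K754R, where 38.8% did. The median difference of the 10 genes was −1.04 in EloA_K754M and −1.28 in EloA_K754R, beside −0.06 and −0.14 over all genes tested. With limma and Benjamini-Hochberg adjustment over all genes, 1 of the 10 (Chac1) was lower past an adjusted p of 0.05 in EloA_K754M, where 0.204% of all genes were, and 8 (all but Atf4 and Ddit4) in EloA_K754R, where 2.79% were. Since these differences chose the genes, nothing is read from these counts. Leaving out any 1 of the 6 libraries left 0 of the 10 past the threshold in EloA_K754M and between 0 and 2 in EloA_K754R, while all 10 differences stayed negative. In these fits the genes called among all genes, in either direction, numbered between 2 and 59 in EloA_K754M, against 33 with every library, and between 0 and 64 in EloA_K754R, against 527.

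**Figure D2:**
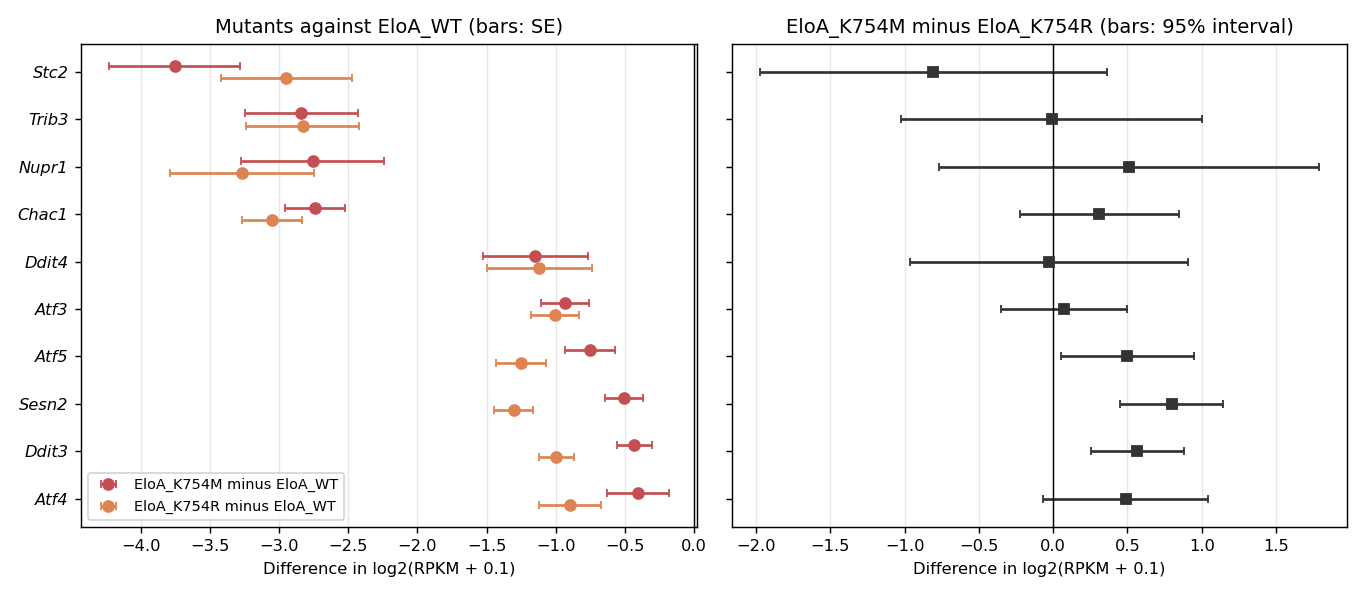
Differences in log2(RPKM + 0.1) of the 10 genes. Left, EloA_K754M and EloA_K754R each minus EloA_WT with standard errors, where all 20 points lie below 0; right, EloA_K754M minus EloA_K754R with 95% intervals, where Sesn2, Ddit3 and Atf5 lie above 0 and the interval of Stc2 spans 0.

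Whether the 2 substitutions of the lysine differ in these genes was tested in the same fit. None of the 10 genes passed an adjusted p of 0.05 between EloA_K754M and EloA_K754R with limma, where 0.29% of all genes did, and 3 of the 10 had an unadjusted p under 0.05 (Sesn2, Ddit3 and Atf5), as did 2806 of all 15161 genes. In 7 of the 10 genes the difference was positive, higher in EloA_K754M, as it was in 60.6% of all genes, and the median was 0.40, beside 0.09 over all genes.

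Sesn2 had the smallest p of the 10, with a difference of 0.80 (95% interval 0.45 to 1.14, limma adjusted p = 0.0853). Sesn2 was 1.74-fold higher in EloA_K754M as a fold of RPKM + 0.1. It passed in limma-voom on the recovered reads (adjusted p = 0.0382) and with the replicate number as a block (adjusted p = 0.0410), as 1 of the 10 genes in each. Those settings called 3.29% and 2.34% of all genes. Genes of chromosome 4 had a median of 0.30 in this comparison, and the part of that in Sesn2 was not tested. Ddit3 followed with 0.56 (0.25 to 0.88, adjusted p = 0.115) and Atf5 with 0.50 (0.05 to 0.95, adjusted p = 0.231). The intervals of all 3 genes excluded 0, and none passed the adjustment over all genes. Atf4 differed by 0.49 (−0.07 to 1.04, adjusted p = 0.315). For these 4 genes both EloA_K754M libraries lay above both EloA_K754R libraries, as they did for Chac1, at 0.31 (−0.23 to 0.85, adjusted p = 0.491); 31.9% of all genes showed this order.

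Stc2 was the single gene of the 10 with both EloA_K754M libraries below both EloA_K754R libraries, as 18.6% of all genes were, with a difference of −0.81 (−1.98 to 0.36, adjusted p = 0.422). It was −0.13 without the first and −1.48 without the second EloA_K754R library. In the remaining 4 genes the mutants overlapped. Trib3 differed by −0.01 (−1.02 to 1.00, adjusted p = 0.994), Ddit4 by −0.03 (−0.97 to 0.91, adjusted p = 0.979), Atf3 by 0.07 (−0.35 to 0.50, adjusted p = 0.856) and Nupr1 by 0.51 (−0.77 to 1.79, adjusted p = 0.646). The intervals of Trib3, Ddit4, Nupr1 and Stc2 reach past or close to a 2-fold difference, so these data do not show that the mutants were alike in them.

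Eed_null cells were set against CJ7_WT cells, each with 1 pooled column, so no test between groups can be made. Since the labels give the line CCE28 to Eed_null and CJ7 to CJ7_WT, the line and the Eed genotype cannot be told apart here either. The ratios below carry exact 95% intervals for the reads, which cover counting error only. Atf4 stood at 10.6 RPKM in Eed_null, against 4.50 RPKM in CJ7_WT, a ratio of 2.37 (1.92 to 2.93). It was the single gene of the 10 past 2-fold upward, as were 6.12% of all 14890 genes, and 0 of the 10 were past 2-fold downward, as were 1.67% of all genes. Of the other 9 genes 7 were lower in Eed_null, where 38.2% of all genes were. Trib3 stood at 1.17 RPKM in Eed_null, against 1.89 RPKM in CJ7_WT, a ratio of 0.620 (0.523 to 0.734). Chac1 stood at 1.18 RPKM in Eed_null, against 1.83 RPKM in CJ7_WT, a ratio of 0.648 (0.479 to 0.869).

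The mTORC1 inhibitors were lower as well. Ddit4 stood at 3.56 RPKM in Eed_null and 5.25 RPKM in CJ7_WT, a ratio of 0.679 (0.485 to 0.943), and Sesn2 at 4.87 RPKM in Eed_null and 6.67 RPKM in CJ7_WT, a ratio of 0.730 (0.696 to 0.765). Both ratios lay below 1 beyond counting error. Stc2 stood at 0.591 RPKM in Eed_null and 0.793 RPKM in CJ7_WT (ratio 0.745, 0.615 to 0.901), and Atf3 at 2.08 RPKM in Eed_null and 2.60 RPKM in CJ7_WT (ratio 0.802, 0.737 to 0.872). These 2 ratios also lay below 1. For Atf5, at 0.651 RPKM in Eed_null and 0.873 RPKM in CJ7_WT, the interval of the ratio included 1 (0.536 to 1.03). The same held for Ddit3, at 3.30 RPKM in Eed_null and 3.17 RPKM in CJ7_WT (0.921 to 1.17), and for Nupr1, at 0.780 RPKM in Eed_null and 0.700 RPKM in CJ7_WT (0.711 to 1.75). The median log2 difference of the 10 genes was −0.37, beside 0.11 over all genes. With equal medians of the columns Ddit3 and Nupr1 turned to −0.10 and −0.02, and 9 of the 10 genes were then lower, as were 54.4% of all genes.

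CJ7_WT gives a second unedited level beside EloA_WT, and its line label is the one the mutants carry. Pooled CJ7_WT lay below both EloA_WT libraries for 8 of the 10 genes, as it did for 53.4% of all genes, above both for Atf3 and between them for Sesn2. EloA_WT averaged 5.68-fold the level of CJ7_WT for Stc2, 3.97-fold for Nupr1, 3.25-fold for Atf4, 2.48-fold for Ddit4 and 2.25-fold for Atf5, against 1.28-fold for Chac1 and 1.62-fold for Trib3. For Atf4 and Ddit4 the 2 unedited groups differed by 1.66 and 1.22 on the log2 scale, more than either mutant did from EloA_WT, and CJ7_WT has no separate replicates to test it. Pooled Eed_null, which carries the line label of EloA_WT, lay below both EloA_WT libraries for 10 of the 10 genes. It lay above all 4 mutant libraries for Atf3, Trib3, Chac1 and Nupr1, below all of them for Ddit4 and within their range for the other 5. The EloA values chose the genes and the shares of all genes were not computed, so nothing is read from these counts.

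Against CJ7_WT the genes divided into 3 classes. All 4 mutant libraries lay below CJ7_WT for 5 genes, Chac1, Trib3, Nupr1, Atf3 and Sesn2, as they did for 23.8% of all genes. They lay under 0.5 times its level for Chac1 and Trib3, as for 0.78% of all genes. Nothing is read from the counts of members against these shares, since the mutant and EloA_WT values chose the genes. Over the summed reads of the 4 mutant libraries Chac1 was 8.17-fold lower than in CJ7_WT (5.22 to 13.3), Trib3 5.37-fold (4.33 to 6.71), Nupr1 2.59-fold (1.54 to 4.45), Atf3 2.23-fold (2.05 to 2.43) and Sesn2 1.88-fold (1.80 to 1.97), with intervals of counting error only. The sums here and below join both mutants, and their intervals do not describe either mutant alone. For Sesn2 the mean log2 difference from CJ7_WT was −0.50 in EloA_K754M and −1.30 in EloA_K754R.

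For Atf5, Ddit3, Ddit4 and Stc2 the CJ7_WT value lay within the range of the 4 mutant libraries. Stc2 stood between 0.227 and 0.820 RPKM in the mutants, against 0.793 RPKM in CJ7_WT. The first EloA_K754R library alone lay above CJ7_WT, and over the summed reads Stc2 was 2.08-fold lower in the mutants (1.73 to 2.51). For Atf4 the order was the opposite of that against EloA_WT. All 4 mutant libraries lay above CJ7_WT, as they did for 36.4% of all genes, and the summed reads gave a ratio of 2.02 (1.65 to 2.47).

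**Figure D3:**
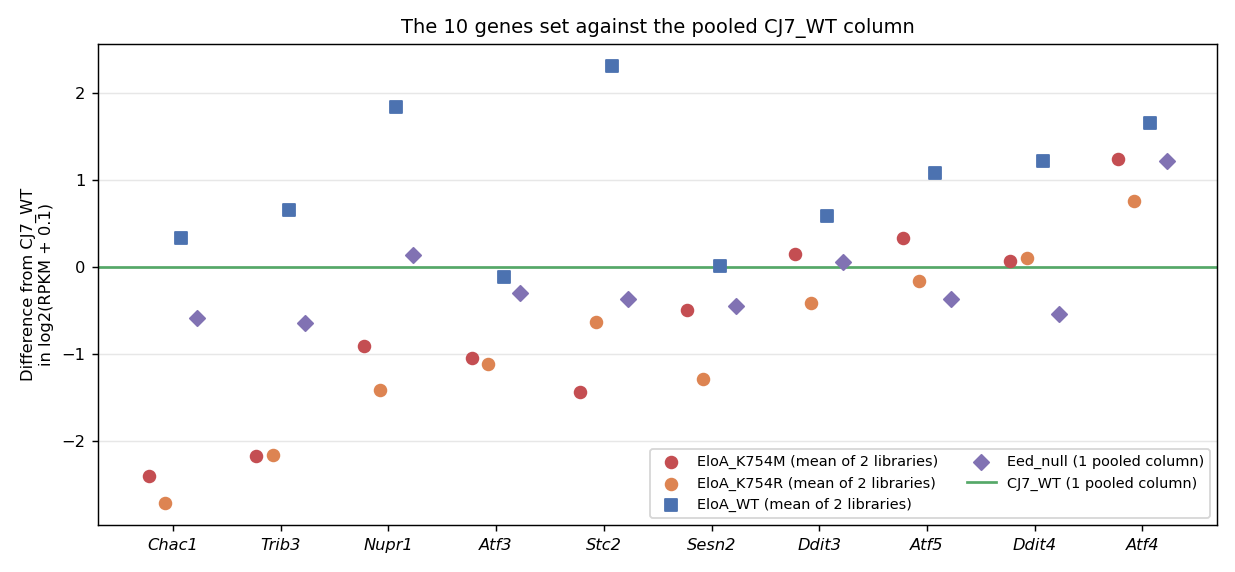
Mean difference in log2(RPKM + 0.1) of each group from the pooled CJ7_WT column for the 10 genes. Chac1 and Trib3 lie more than 2 below the line in both mutants, and Atf4 lies above it in every other group. EloA_WT stands furthest above it for Stc2, Nupr1, Atf4, Ddit4 and Atf5. It also stands above it for Trib3 (0.66), Ddit3 (0.59) and Chac1 (0.33), and near it for Sesn2 (0.01) and Atf3 (−0.11).

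How the 10 genes varied together was described over the 8 columns, which share groups and line labels, so the values are a description without a test. The mean profile of the other 9 was followed most closely by Nupr1 (Pearson r = 0.98 on log2 values, 8 columns), then by Trib3 (0.91) and Stc2 (0.90). Atf4 itself followed it least (0.43), and was the one transcription factor of the group that stood lowest in CJ7_WT. Of the 45 pairs of genes, 5 had r over 0.9, led by Atf3 with Chac1 (0.96), and the lowest was Atf4 with Atf3 (0.09).

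Outside the group, 3406 named genes averaging 0.5 RPKM or more and ranging over at least 1 on the log2 scale were ranked by their likeness to the mean profile of the 10 genes. The most alike was Slc1a4, a transporter of neutral amino acids (r = 0.98). It stood at 0.465 and 0.372 RPKM in EloA_K754M and at 0.355 and 0.301 RPKM in EloA_K754R, against 2.93 and 2.89 RPKM in EloA_WT, and at 0.760 RPKM in Eed_null and 0.894 RPKM in CJ7_WT. The next were Rad51l3 (0.98), Pycr1 (0.98), Pck2 (0.98), Cryzl1 (0.97), Jdp2 (0.96), Mthfd2 (0.96), Cntrob (0.96), Gpt2 (0.95) and Stard3 (0.95). Of these 10 genes 5 lie on chromosome 11, the chromosome whose genes were lower in both mutants than in EloA_WT, namely Slc1a4, Rad51l3, Pycr1, Cntrob and Stard3, beside 12.6% of the genes ranked.

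ATF4 is known to induce genes for enzymes of serine, one-carbon and amino acid synthesis. Of 13 such genes 7 fell in EloA_K754M and 9 fell in EloA_K754R with limma, and 0 rose. Over all genes 0.204% fell in EloA_K754M and 2.79% in EloA_K754R. This list and those below were chosen with earlier results of these data known, so nothing is read from their counts. The median differences of the 13 genes were −1.54 and −1.46. Got1 was the single one with a positive difference, 0.14 in EloA_K754M (limma adjusted p = 0.732). Phgdh, which starts the synthesis of serine, averaged 0.408 ± 0.0850 RPKM in EloA_K754M, against 2.55 ± 0.180 RPKM in EloA_WT (SD, n = 2 each; −2.39, SE 0.20, limma adjusted p = 0.0281). Pck2, the mitochondrial PEP carboxykinase, averaged 0.600 ± 0.0343 RPKM in EloA_K754M and 0.502 ± 0.127 RPKM in EloA_K754R, against 3.14 ± 0.129 RPKM in EloA_WT (−2.21 in EloA_K754M and −2.44 in EloA_K754R, limma adjusted p = 0.0264 and 0.0127). Mthfd2, of mitochondrial one-carbon metabolism, fell by 1.73 in EloA_K754M and by 1.89 in EloA_K754R (limma adjusted p = 0.0221 and 0.0115). Asns, asparagine synthetase, did not pass, at −0.49 in EloA_K754M and −0.75 in EloA_K754R (limma adjusted p = 0.330 and 0.0941). Gpt2, Aldh18a1 and Pycr1 were the others among the widest 4 in either mutant, between −2.24 and −1.67, and Pycr1 lies on chromosome 11.

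Amino acid transporters showed the same direction, and fewer of them passed in EloA_K754M. Of 10 genes 1 fell in EloA_K754M (Slc1a4, −2.54, SE 0.16, limma adjusted p = 0.0176), where 0.204% of all genes did. In EloA_K754R 8 fell, where 2.79% of all genes did. The medians of the 10 transporters were −1.17 and −1.19. Slc1a4 lies on chromosome 11. Slc7a11, the cystine importer, averaged 0.0734 ± 0.0697 RPKM in EloA_K754M and 0.0477 ± 0.0402 RPKM in EloA_K754R, against 0.808 ± 0.155 RPKM in EloA_WT (SD, n = 2 each). It fell by 2.64 in EloA_K754R (limma adjusted p = 0.0364), while its difference of −2.44 in EloA_K754M missed the threshold (limma adjusted p = 0.0868). Slc6a9, a glycine transporter, fell by 1.77 and Slc38a2 by 1.41 in EloA_K754R.

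Of 13 genes for aminoacyl-tRNA synthetases and the tRNA exporter Xpot, 1 fell in EloA_K754M (Sars, −1.04, limma adjusted p = 0.0490), where 0.204% of all genes did. In EloA_K754R 9 fell, where 2.79% of all genes did. The medians of the 13 genes were −0.72 and −0.95. Nars averaged 5.42 ± 0.0434 RPKM in EloA_K754M and 4.59 ± 0.535 RPKM in EloA_K754R, against 12.4 ± 1.68 RPKM in EloA_WT (SD, n = 2 each), and fell by 1.42 in EloA_K754R (limma adjusted p = 0.0234). Yars fell by 1.30 and Aars by 1.17 in EloA_K754R.

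Of 8 other ATF4-dependent effectors tested, 0 passed with limma in EloA_K754M and 4 fell in EloA_K754R, where 2.79% of all genes fell. The medians of the 8 genes were −0.89 and −1.04. Herpud1, of endoplasmic reticulum protein degradation, averaged 0.921 ± 0.154 RPKM in EloA_K754R, against 5.22 ± 0.395 RPKM in EloA_WT (−2.39, limma adjusted p = 0.0127). Gdf15, a secreted stress cytokine, fell by 2.24, Vldlr, a lipoprotein receptor, by 1.89 and Cth, of cysteine synthesis, by 1.35 in EloA_K754R.

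Among 12 bZIP partners and relatives of Atf4, Jdp2, a repressor that dimerises with Jun proteins, fell in both mutants, with −1.87 in EloA_K754M and −1.82 in EloA_K754R (limma adjusted p = 0.0264 and 0.0127). Cebpg, a C/EBP partner of ATF4, fell by 1.02 in EloA_K754R (limma adjusted p = 0.0370) and stood at −0.90 in EloA_K754M (limma adjusted p = 0.0914). The other 10 did not pass in either mutant, and the list's medians were −0.14 and −0.32. Mafg stood at −0.77 and −0.72 in EloA_K754M and EloA_K754R, and Cebpd could not be judged, as it was listed at 0 in 1 library of EloA_K754R and 1 of EloA_WT.

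Genes upstream of Atf4 showed no calls, where 0.218% of all genes were called in EloA_K754M and 3.48% in EloA_K754R. At these shares 0 calls in a list this short cannot set it apart, and the same holds for the uncalled lists below. Of 10 genes for the eIF2α kinases, subunits of eIF2 and eIF2B, phosphatase subunits and the kinase regulators Gcn1l1 and Impact, 0 passed with limma in either mutant, and the median differences were −0.17 and −0.12. Ppp1r15a, GADD34, which directs the phosphatase to eIF2α and is itself induced by ATF4, averaged 0.806 ± 0.241 RPKM in EloA_K754M and 1.05 ± 0.231 RPKM in EloA_K754R, against 2.24 ± 1.92 RPKM in EloA_WT (SD, n = 2 each), a spread too wide to place it. Eif2ak2, the kinase PKR, had −0.72 in EloA_K754M (limma adjusted p = 0.125).

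The paralogs of the 10 genes gave 0 calls with limma among the 6 tested, and medians of −0.10 in EloA_K754M and −0.03 in EloA_K754R. In EloA_K754M they ran between −0.42 for Chac2 and 0.64 for Ddit4l, with −0.41 for Sesn1, −0.38 for Sesn3, 0.18 for Trib1 and 0.35 for Trib2. In EloA_K754R they ran between −0.62 for Chac2 and 0.29 for Trib2. Stc1, the paralog of Stc2, was under the minimum level.

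The chaperones and enzymes of the unfolded protein response that act mainly beside ATF4, under ATF6, IRE1 and XBP1, were not called either. Of 15 genes 0 passed with limma in either mutant, and the medians were 0.01 in EloA_K754M and −0.43 in EloA_K754R. Xbp1 had the widest difference in EloA_K754R, −1.23 (limma adjusted p = 0.0591), and Hspa5, the chaperone BiP, had 0.32 in EloA_K754M and −0.43 in EloA_K754R. Of 6 cell death genes under CHOP and p53 tested, 0 passed with limma, and in EloA_K754R they ran between −0.26 for Bax and 0.87 for Pmaip1, with 0.17 for Bcl2l11, 0.18 for Ero1l, 0.39 for Tnfrsf10b and 0.48 for Bbc3. In EloA_K754M they ran between −0.52 for Ero1l and 0.42 for Bbc3.

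Of 11 p53 targets 0 passed with limma in either mutant, with medians of 0.10 and 0.02. Of 9 regulators of mTORC1, 0 passed with limma in EloA_K754M and 1 rose in EloA_K754R, Rragb, a Rag GTPase, which averaged 1.21 ± 0.0664 RPKM in EloA_K754R, against 0.306 ± 0.0231 RPKM in EloA_WT (SD, n = 2 each; 1.69, limma adjusted p = 0.0195). Rragb was also lower in EloA_K754M than in EloA_K754R, by 1.64 on the log2 scale (limma adjusted p = 0.0410). With equal medians of the libraries, the counts over all genes in EloA_K754R were 164 higher and 160 lower, against 104 higher and 423 lower as deposited. The median over all genes was then 0.05, against −0.14 as deposited, and all 10 genes stayed lower than EloA_WT.

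**Figure D4:**
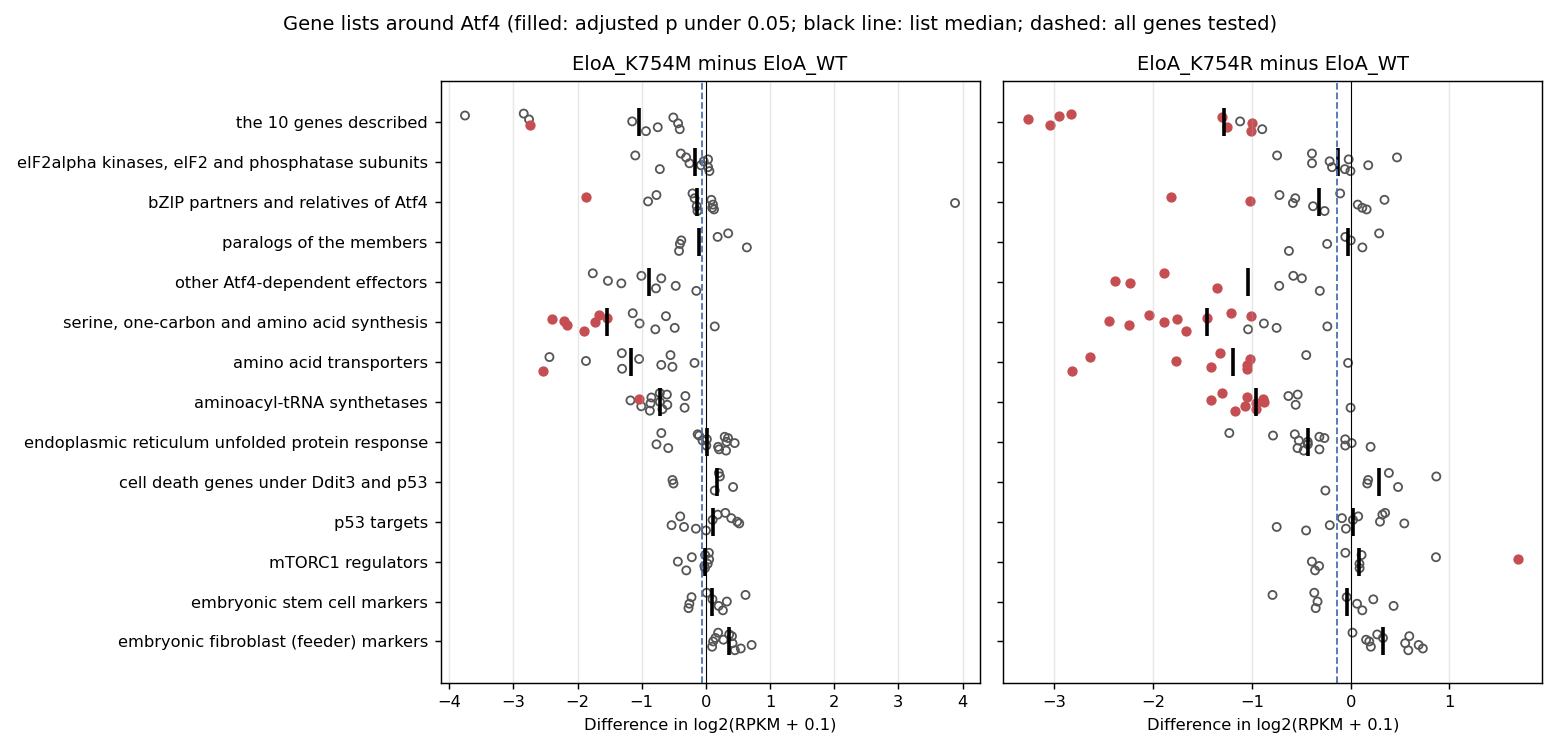
Differences in log2(RPKM + 0.1) of single genes (points) in the lists around Atf4, for each mutant minus EloA_WT. Filled points passed an adjusted p of 0.05 with limma, black bars are list medians and the dashed line is the median of all genes. Of all genes 0.218% passed in EloA_K754M and 3.48% in EloA_K754R. Filled points gather in the 10 genes described, amino acid synthesis, transporters and tRNA synthetases, all chosen with earlier results known. In EloA_K754R they also stand among the other ATF4-dependent effectors (4), the bZIP genes (2) and the mTORC1 regulators (1, higher). In EloA_K754M the bZIP genes hold 1. None stands among the eIF2α kinases, paralogs, unfolded protein response, cell death genes or p53 targets, lists too short to be set apart by this.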

How the data were processed

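The authors deposited 1 table of intronic RPKM, with 6 columns of single libraries and 2 pooled columns named averages. Per the submitters' processing notes, BWA and the build mm9 were used. No source used here gives the counter, annotation, strand handling or version of BWA. RPKM of a gene were whole multiples of a step in 20777 of 20817 genes with 6 or more values above 0 (99.81%, within 0.01 of a read, or 0.06 for high values), against 0 of 300 genes whose values were jittered by 0.5%. The intron lengths of GENCODE M21 put the step at 1 read in 12848 genes and at 0.5 of a read in 7504, within 6%, and left it unknown in 2461. Counts that were not whole were rounded up for intervals, and reads without molecular identifiers are not independent molecules, so intervals cover counting error only.

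For the 6 EloA libraries limma 3.58.1 (R 4.3.3) was run on log2(RPKM + 0.1) of the 15161 genes averaging 0.1 RPKM or more, with 1 model for the 3 groups, moderated variances with a trend, two-sided tests, p-values adjusted by Benjamini-Hochberg across these genes, a threshold of 0.05, and 3 residual and 2.76 prior degrees of freedom. SE and intervals are those of limma. A gene "rose", "fell" or was "called" where its adjusted p was under 0.05. Nothing in the labels says that replicates came from separate cultures, so p-values measure the spread between these samples, which may be technical. Ratios of Eed_null to CJ7_WT carry exact 95% intervals for read counts (scipy 1.17.1). Tables and plots were made in Python 3.11.15 with pandas 2.3.3 and matplotlib 3.10.9. Promoters are those of RefSeq for GRCm38.p6, and no coordinates of the deposited build are printed.

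The 10 genes and the 13 lists beside them were chosen with earlier results of these data known. Named were the 10 genes, at most 4 genes of each list with the widest difference, all genes of lists of 7 or fewer, and the 10 genes most alike in profile. Asns, Hspa5 and Got1 were named after their values were seen, and Mars and Nup62 for their overlap with Ddit3 and Atf5. Alternatives tried were the pseudocount, the filter, 2 other scalings, limma-voom on recovered reads, a replicate block, the 2 compared groups alone, no variance trend and each library left out.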

Additional observations from a re-analysis of the deposited data

How the results depend on the processing

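Under 16 alternatives all 10 genes kept negative differences in both mutants against EloA_WT, while their sizes and the number past the threshold moved. For EloA_K754M it was 1 as reported, 3 with a pseudocount of 1, 0 with quantile normalization, 4 with limma-voom on recovered reads, 3 with the replicate block and 0 with only the 2 groups compared. For EloA_K754R it was 8 as reported, 3 with no filter on low values, 5 with equal library medians, 4 with quantile normalization, 2 with no variance trend and 2 with only the 2 groups compared. Leaving out 1 library at a time gave 0 for EloA_K754M, 0 to 2 for EloA_K754R and 0 between the mutants, and the medians of the 10 genes then ran from −1.30 to −0.84, from −1.46 to −1.28 and from 0.06 to 0.49. These fits have 1 residual degree of freedom fewer, and a lone library is assumed to vary like the other groups. With a pseudocount of 1 the median was −1.04 for EloA_K754R and 0.10 between the mutants, where a pseudocount shrinks the differences of low genes by construction.

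Between the mutants 1 gene, Sesn2, was called with limma-voom and with the replicate block (adjusted p = 0.0382 and 0.0410, and up to 0.305 over the 16 alternatives). Uncalled differences between the mutants changed sign in 4 genes. Trib3 was 0.00 with a pseudocount of 1, and with 1 library left out Trib3 ran from −0.50 to 0.48, Ddit4 from −0.43 to 0.37, Atf3 from −0.13 to 0.28 and Nupr1 from −0.30 to 1.32. They turned without the first library of EloA_K754M or of EloA_K754R for Trib3 and Ddit4, and without the second EloA_K754R library for Atf3 and Nupr1. In Eed_null against CJ7_WT 3 of the 10 genes were past 1.5-fold, as were 21.4% of all genes. Differences between replicates 1 and 2 correlated across genes by 0.15, 0.17 and 0.20 between pairs of groups; with 2 numbers and no label that says what they share, they were not taken as pairs. With the replicate block 227 of all genes were called in EloA_K754M and 1777 in EloA_K754R, against 33 and 527 without it, and limma-voom called 319 and 1262. Between the mutants 355 were called with the block and 494 with limma-voom, against 44 as reported. The cause of these differences between settings was not tested. Nupr1, Chac1 and Trib3 rest on the fewest reads in the mutants (2 to 9, 5 to 7 and 14 to 35 a library), which limits comparisons between the mutants.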
